A study of Mus musculus with 4 samples.

Results

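The metalloproteinase genes and their TIMP inhibitors were examined in 2 cell populations sorted from mouse skin wounds. Members were taken by gene symbol: every gene whose symbol begins with Mmp, Adam, Adamts or Timp followed by a number, and every Adamtsl gene. The rule was chosen with earlier results of these data known. This gave 84 genes with 122 transcripts, out of 24358 genes with 34535 transcripts in the deposited table. They comprised 23 Mmp genes, 33 Adam genes, 19 Adamts genes, 5 Adamtsl genes and 4 Timp genes. One population was sorted as CD301b macrophages, named for a C-type lectin on their surface. The other consisted of immune cells without F4/80 on their surface, a protein widely used to mark mouse macrophages. Both were isolated by fluorescence-activated cell sorting from the dermis of day 5 wound beds of 7-week-old male C57/Bl6 mice, with 2 libraries per population. Whether animals were pooled, and whether the libraries came from separate animals, is not stated in the labels, so the p-values below may measure only technical spread. No wound macrophages without CD301b were included. Expression was given as 1 FPKM per transcript and population, a fragment count scaled to transcript length and library size. The spread between libraries therefore could not be computed, the depth of the libraries is unknown, and no error accompanies an FPKM. In every pair of values joined by "against", CD301b macrophages come first and F4/80-negative cells second.

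Matrix metalloproteinases (MMPs) are zinc-dependent enzymes, made as inactive zymogens, that cut collagens, elastin, proteoglycans and many soluble proteins. Most are secreted, while the membrane-type enzymes stay at the cell surface. ADAMs (a disintegrin and metalloproteinase) are membrane-anchored and shed the outer parts of other surface proteins, such as cytokine precursors and receptors. ADAMTS enzymes are secreted relatives with thrombospondin repeats that process procollagens and proteoglycans, and ADAMTS-like proteins share those repeats but have no protease domain. TIMPs (tissue inhibitors of metalloproteinases) bind the active site of these enzymes. In healing skin, wound macrophages, neutrophils, fibroblasts and keratinocytes all produce members of these families.

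All 7 macrophage markers examined were higher in CD301b macrophages, with summed levels of 3953 against 1505 FPKM, and all 8 dendritic cell markers were lower, at 71.5 against 334 FPKM. Adgre1, which encodes F4/80, was 557 against 151 FPKM, so its transcript was present in the F4/80-negative cells. Mgl2, which encodes CD301b, went against its label, at 49.2 against 103 FPKM. To be called, a gene needed a transcript whose Cuffdiff p in the authors' deposited table stayed at or under 0.05 after Benjamini-Hochberg adjustment, no passing transcript in the other direction, and a summed FPKM that went the same way. By this rule CD301b macrophages had 11.0% of all tested genes higher and 6.20% lower. In bulk samples such as these, fewer cells of a type and less RNA per cell cannot be told apart.

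Of the 84 members, 39 reached 1 FPKM in at least 1 population, 30 were listed below that level and 15 were listed at 0 in both. The filter of the deposited test left 46 members tested. Of these, 6 were lower in CD301b macrophages (13.0% of those tested, beside 6.20% of all genes), 3 were higher (6.52%, beside 11.0%), and 1, Adam17, had a passing transcript that went against its summed level. The lower members were Mmp12, Mmp9, Mmp2, Mmp25, Mmp3 and Adamts1, and the higher members were Timp2, Mmp27 and Adam9. Whether or not they passed the threshold, 76.1% of tested members had a lower summed FPKM in CD301b macrophages, beside 44.7% of all tested genes. The median log2(FPKM + 1) difference, macrophages minus F4/80-negative cells, was -0.29 over the tested members and 0.05 over all tested genes. These shares and medians were not tested. At an adjusted p of 0.01, 1 member was higher (beside 6.50% of all genes) and 5 were lower (beside 3.54%). The same 9 members were called from the most abundant transcript only (10.4% of all genes higher, 5.81% lower), after scaling to the median gene (10.9% and 6.25%) and among genes at 1 FPKM or more (11.8% and 6.54%). These settings reuse the same p-values, so the unchanged calls are no sign of stability.

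**Figure D1:**
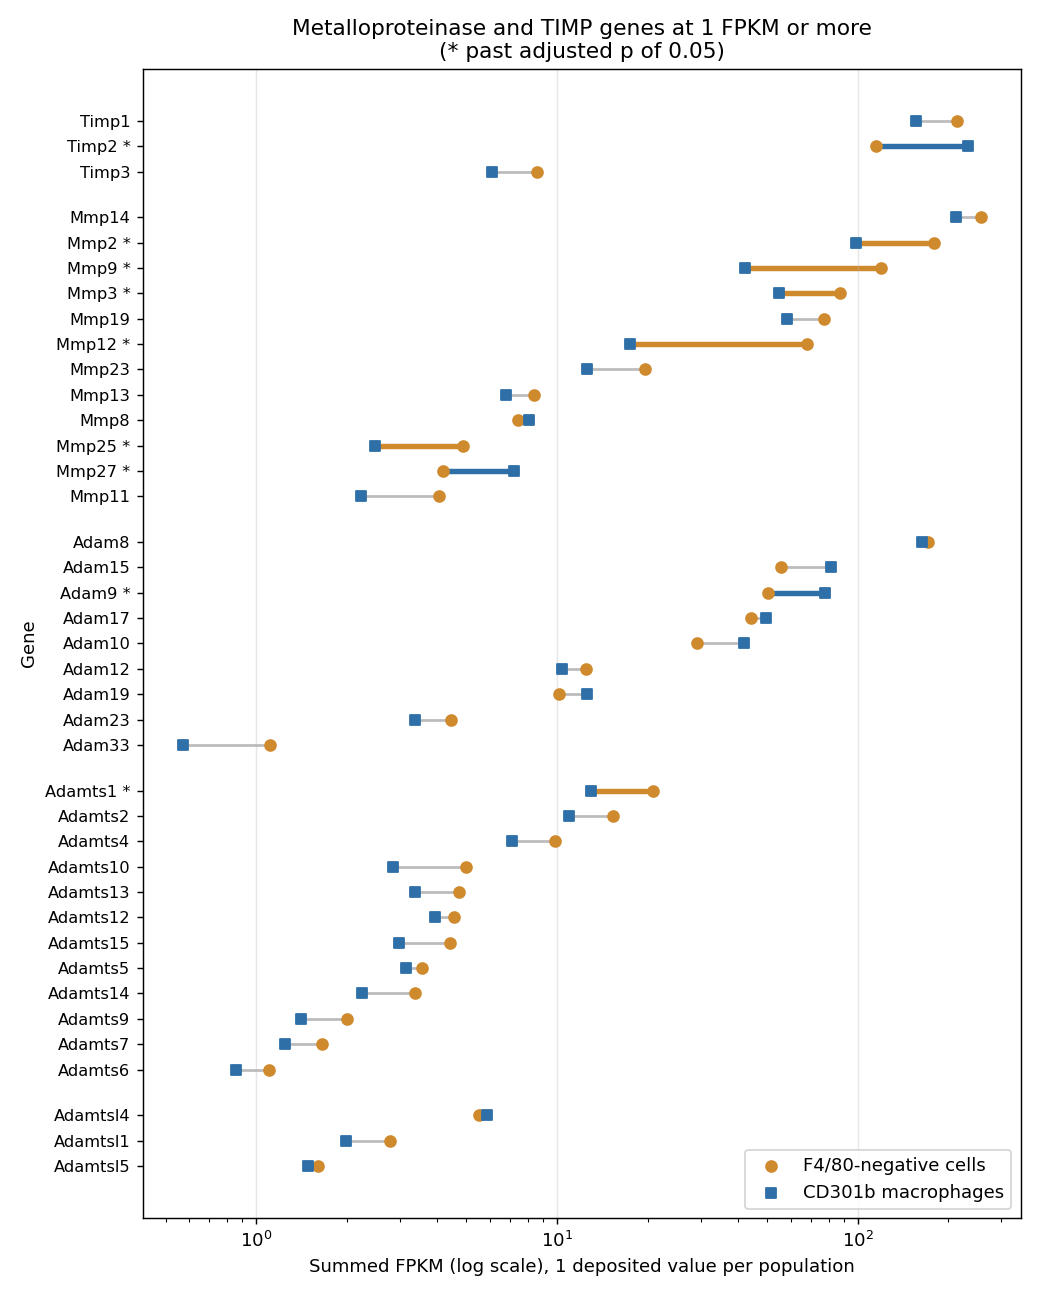
Summed FPKM of the 39 members at 1 FPKM or more (horizontal axis, log scale) in F4/80-negative cells (circles) and CD301b macrophages (squares), grouped by subfamily, 1 deposited value per population and no error bars. Thick lines and asterisks mark the 9 genes past the threshold, of which Timp2, Mmp27 and Adam9 have the square to the right.

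Differences between subfamilies were not tested, and their counts and medians follow. Among 16 tested Mmp genes, 5 were lower (31.25%, beside 6.20% of all genes) and 1 was higher (6.25%, beside 11.0%). Their median log2(FPKM + 1) difference was -0.35. All 12 tested Adamts genes had a lower summed FPKM in CD301b macrophages, with a median difference of -0.41. Adamts1 alone passed the threshold (8.33%, near the 6.20% of all genes). The 12 tested Adam genes were split, 6 up and 6 down by summed FPKM. In the Cuffdiff test 1 was higher (8.33%, beside 11.0% of all genes) and none was lower (beside 6.20%). Of 19 transcripts, 3 were lower and 2 were higher at an unadjusted p of at most 0.05 (Cuffdiff, the authors' deposited table). Of all tested transcripts, 10.6% were lower at that p, and 2785 of 16921 were higher. The median difference of the Adam genes was 0.05. That median equalled the 0.05 of all tested genes. After scaling to the median gene it was -0.06, beside -0.04 for all tested genes. The 3 tested Timp genes had a median of -0.44 although their summed level was higher in CD301b macrophages, because Timp2 went up while Timp1 and Timp3 had lower values. None of the 3 tested Adamtsl genes passed in the Cuffdiff test, and their median difference was -0.07. Of 5 transcripts, 1 was lower at an unadjusted p of at most 0.05 (Cuffdiff, the authors' deposited table), beside 10.6% of all tested transcripts.

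**Figure D2:**
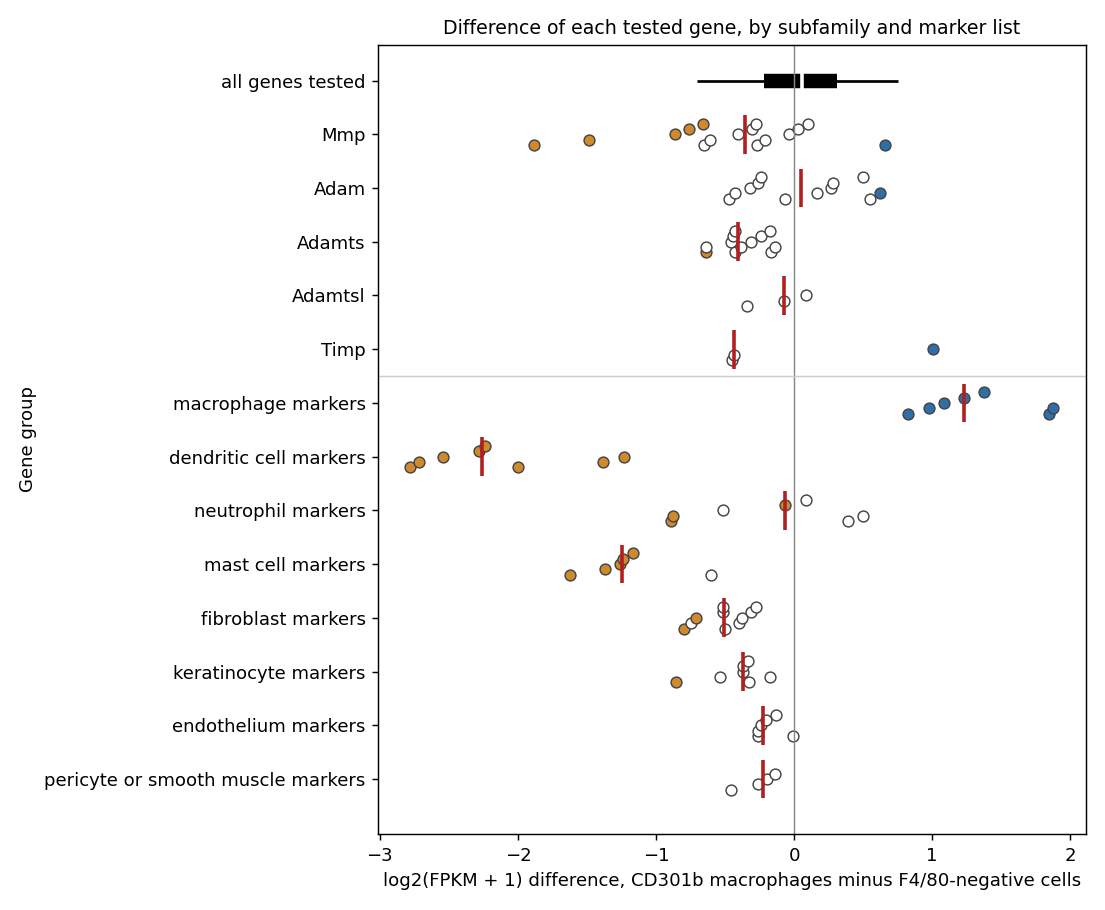
Difference in log2(FPKM + 1), CD301b macrophages minus F4/80-negative cells, for each tested gene of a subfamily or marker list (points; orange lower, blue higher, white not past the threshold), with the median of each group as a red line. The black bar gives the middle 50% of all tested genes, from -0.22 to 0.31, its thin line the range from the 5th to the 95th percentile, from -0.70 to 0.75, and the white tick their median.

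Secreted MMPs that act on elastin and denatured collagen were lower in CD301b macrophages. Mmp12, the macrophage elastase (NCBI gene 17381, chr9:7344397-7360461, GRCm38), was 17.5 FPKM in CD301b macrophages and 67.5 FPKM in F4/80-negative cells, a 3.85-fold difference. Mmp9, gelatinase B, which neutrophils, osteoclasts and dendritic cells also make (NCBI gene 17395, chr2:164940326-164955850), was 42.1 against 119 FPKM, a 2.84-fold difference. The elastase and this gelatinase were thus lower in the population sorted as macrophages. Mmp2, gelatinase A, a typical product of fibroblasts (NCBI gene 17390, chr8:92827290-92853421), was 98.5 against 180 FPKM, a 1.82-fold difference. All 3 had an adjusted p of 0.000999 (Cuffdiff p from the authors' deposited table, adjusted here). It was the smallest adjusted p that occurred and was shared by 847 transcripts, so it does not rank these genes. Together the 2 gelatinases summed to 141 against 299 FPKM.

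Stromelysin and the leukocyte membrane-type enzyme followed in the same direction. Mmp3, stromelysin 1, which cuts proteoglycans and activates other MMP zymogens (NCBI gene 17392, chr9:7445822-7455975), was 54.7 against 87.2 FPKM, 1.59-fold lower. Its adjusted p was 0.00974 by Cuffdiff in the authors' deposited table, and 7.99% of the 50-base words in its transcripts also occur in Mmp10, which was listed below 1 FPKM in both populations. Mmp25, a membrane-type MMP anchored by a lipid tail and known from neutrophils (NCBI gene 240047, chr17:23628315-23645269), was 2.48 against 4.88 FPKM, 1.97-fold lower. Its adjusted p was 0.00458 by the same test of the authors' deposited table.

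Mmp27 was the only Mmp gene called higher in CD301b macrophages. It encodes a little-studied stromelysin-like enzyme (NCBI gene 234911, chr9:7571396-7581885) and was 7.18 against 4.19 FPKM, 1.71-fold higher. The adjusted p was 0.0239 from Cuffdiff in the authors' deposited table.

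The most abundant Mmp gene of both populations did not pass the threshold. Mmp14, which encodes the collagenolytic membrane-type enzyme MT1-MMP, was 211 against 256 FPKM, with an adjusted p of 0.395 by Cuffdiff in the authors' deposited table. It ranked 399th among all genes of CD301b macrophages and 310th among those of F4/80-negative cells. Mmp19, a secreted enzyme first found in synovium, was 58.2 against 77.3 FPKM, and Mmp23, a membrane-bound enzyme with a short propeptide, was 12.5 against 19.6 FPKM. Neither passed the threshold, and the same held for Mmp11, stromelysin 3, at 2.23 against 4.07 FPKM. In the order named, their adjusted p was 0.0793, 0.0622 and 0.0585 (Cuffdiff, the authors' deposited table). For Mmp19, 22.3% of the exon bases overlap exons of Tmem198b on the other strand, which was 41.1 against 60.2 FPKM. Mmp11 shares 5.58% of its exon bases with Chchd10 on the other strand, at 2.32 against 4.46 FPKM. Whether strand was used in counting is not given, so reads from such overlaps may not be separable.

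The collagenases were at low levels and did not pass the threshold. Mmp13, the main interstitial collagenase of mice, was 6.77 against 8.37 FPKM, and Mmp8, the neutrophil collagenase, was 8.08 against 7.45 FPKM. Mmp1a was listed at 0 in both populations and Mmp1b at 0.00762 against 0.0554 FPKM. Mmp7, the epithelial matrilysin, was listed at 0 against 0.0885 FPKM, and Mmp20, the enzyme of tooth enamel, at 0 in both. The remaining membrane-type genes, Mmp15, Mmp16, Mmp17 and Mmp24, all stayed below 1 FPKM, with Mmp15 the highest at 0.919 against 0.965 FPKM. Mmp10 (0.547 against 0.909 FPKM), Mmp28 (0.508 against 0.481 FPKM) and Mmp21 (0 against 0.00906 FPKM) complete the Mmp genes below 1 FPKM.

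Of the 23 Mmp genes, 10 lie side by side on chromosome 9 (chr9:7272514-7699585, GRCm38), a cluster shared by many vertebrates, and its members ranged from 0 to 87.2 FPKM in F4/80-negative cells. In order along the chromosome these are Mmp13, Mmp12, Mmp1b, Mmp3, Mmp1a, Mmp10, Mmp8, Mmp27, Mmp20 and Mmp7. The cluster held the most lowered Mmp gene, Mmp12, and the single raised one, Mmp27. Neighbours were unlike each other: Mmp3 at 87.2 FPKM lies between Mmp1b and Mmp1a, at 0.0554 and 0 FPKM in the same cells. Mmp8 and Mmp27 are adjacent, and Mmp27 passed the threshold while Mmp8 did not. Whether their differences differ from each other was not tested.

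The promoters of this cluster are shown because classical work on MMP genes places an AP-1 element, the binding word of Fos and Jun proteins, close to their start sites. The word TGANTCA, whose reverse complement is the same pattern so that both strands are covered, was searched in RefSeq promoters of GRCm38.p6 (250 bases before to 50 after each start). It occurred in 8 of the 10 cluster genes and in none of the 8 Mmp genes listed on other chromosomes, beside 8.97% of all 27025 genes (7.81% of 32851 promoters). The letters matched were TGAATCA in Mmp20, a variant of the TGAGTCA or TGACTCA found in the other matching cluster genes. Mmp12 and Mmp7 each have a further listed start whose promoter lacks it. Promoters of 53 of the 84 members were used, and those of Mmp2 and Mmp9 were not analysed here. Given below are the 80 bases before the start site of 6 cluster genes, 5′ to 3′ on the gene's strand, with matches in capitals. For Mmp12 the start used is that of the transcript in the deposited table. The windows are chr9:7272434-7272513 (Mmp13), chr9:7347294-7347373 (Mmp12), chr9:7445742-7445821 (Mmp3), chr9:7502262-7502341 (Mmp10), chr9:7558349-7558428 (Mmp8) and chr9:7571316-7571395 (Mmp27), all on the plus strand.
Mmp13: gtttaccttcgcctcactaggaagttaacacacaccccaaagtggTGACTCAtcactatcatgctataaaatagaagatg
Mmp12: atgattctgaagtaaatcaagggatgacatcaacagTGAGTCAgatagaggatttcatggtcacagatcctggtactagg
Mmp3: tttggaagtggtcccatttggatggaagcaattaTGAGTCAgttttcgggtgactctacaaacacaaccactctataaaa
Mmp10: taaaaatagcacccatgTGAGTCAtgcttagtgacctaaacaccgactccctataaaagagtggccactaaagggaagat
Mmp8: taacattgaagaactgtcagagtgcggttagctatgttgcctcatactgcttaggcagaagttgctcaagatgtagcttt
Mmp27: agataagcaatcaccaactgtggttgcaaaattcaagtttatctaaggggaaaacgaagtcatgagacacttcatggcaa

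The match begins 35 bases before the start in Mmp13, 44 in Mmp12, 46 in Mmp3 and 63 in Mmp10. A match that begins 30 to 60 bases before the start was found in 0.950% of all promoters. That window was not in the analysis plan, and it holds the matches of Mmp13, Mmp12 and Mmp3 but not that of Mmp10. The share therefore does not measure how rare these positions are. Mmp8 and Mmp27 held no match, which says only that these letters are not in the promoter searched. The genes with a match covered the whole range of levels, from Mmp3 and Mmp12 down to Mmp1a and Mmp20 at 0 FPKM, so the word did not sort the cluster by level. Outside the Mmp genes, the word was found in 5 Adam genes (Adam19 and 4 genes below 1 FPKM) and in none of the Adamts, Adamtsl and Timp promoters searched. In Adam20 and Adam25 the letters were TGAATCA, as in Mmp20.

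**Figure D3:**
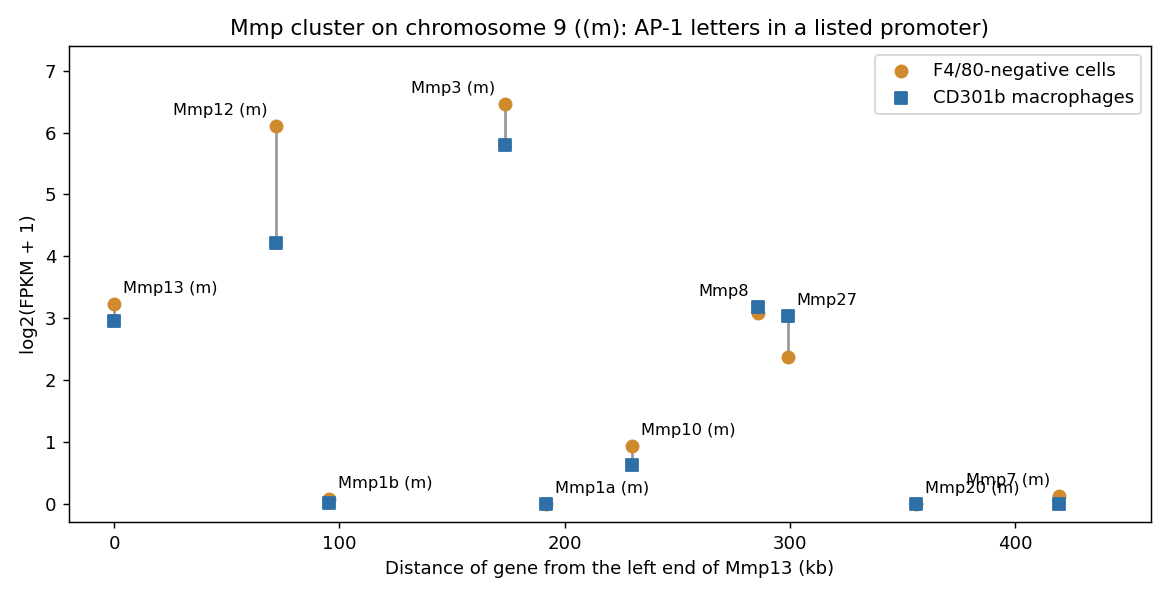
Level of the 10 Mmp genes of the chromosome 9 cluster as log2(FPKM + 1) (vertical axis) against distance from the left end of Mmp13 in kb (horizontal axis), for F4/80-negative cells (circles) and CD301b macrophages (squares). Genes marked (m) hold the word TGANTCA in a listed promoter, as the variant TGAATCA in Mmp20. Mmp12 shows the widest gap, 17.5 against 67.5 FPKM, and Mmp8 and Mmp27 are the unmarked genes.

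Among the inhibitors, Timp2 rose. Timp2, which inhibits MMPs broadly and also takes part in the activation of proMMP2 (NCBI gene 21858, chr11:118301061-118355411), was 232 against 115 FPKM, 2.02-fold higher, with an adjusted p of 0.000999 by Cuffdiff in the authors' deposited table. Timp1, an inducible secreted inhibitor that binds proMMP9, was 156 against 213 FPKM and had an adjusted p of 0.114 by the same test of the authors' deposited table. Timp3, which binds the matrix and also inhibits ADAM17 and aggrecanases, was 6.10 against 8.61 FPKM with an adjusted p of 0.0875 in that test of the authors' deposited table. Timp4, an inhibitor best known from heart, was listed at 0.189 against 0.193 FPKM. The leading inhibitor transcript thus differed between the populations: Timp2 made up 58.9% of the summed Timp FPKM in CD301b macrophages and 34.2% in F4/80-negative cells, and Timp1 39.5% and 63.2%. Timp3 lies within Syn3 on the other strand, which shares 21.3% of its exon bases, but Syn3 was only 0.155 against 0.110 FPKM.

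Timp2, Mmp14 and Mmp2 are known to form a complex at the cell surface in which MT1-MMP cuts and activates proMMP2. Their transcripts took 3 courses here. The bridging inhibitor Timp2 was 2.02-fold higher, the activator Mmp14 was not past the threshold and the substrate Mmp2 was 1.82-fold lower in CD301b macrophages. Mmp9 and its inhibitor Timp1 both had the higher value in F4/80-negative cells, with only Mmp9 past the threshold.

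Summed over all members, the Mmp genes reached 524 FPKM in CD301b macrophages and 839 FPKM in F4/80-negative cells, and the Timp genes 394 and 337 FPKM. The Timp sum was therefore 0.752 times the Mmp sum in CD301b macrophages and 0.402 times in F4/80-negative cells. Without Timp2 these ratios were 0.309 and 0.264, and without Mmp9 and Mmp12 they were 0.849 and 0.517. In these sums, most of the gap between the populations in this ratio was lost when Timp2 was left out. Membrane-type enzymes made a larger part of the Mmp sum in CD301b macrophages, where Mmp14 alone was 40.3% of it, beside 30.5% in F4/80-negative cells. These are ratios of transcript levels with no error, and they do not measure protein or activity.

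**Figure D4:**
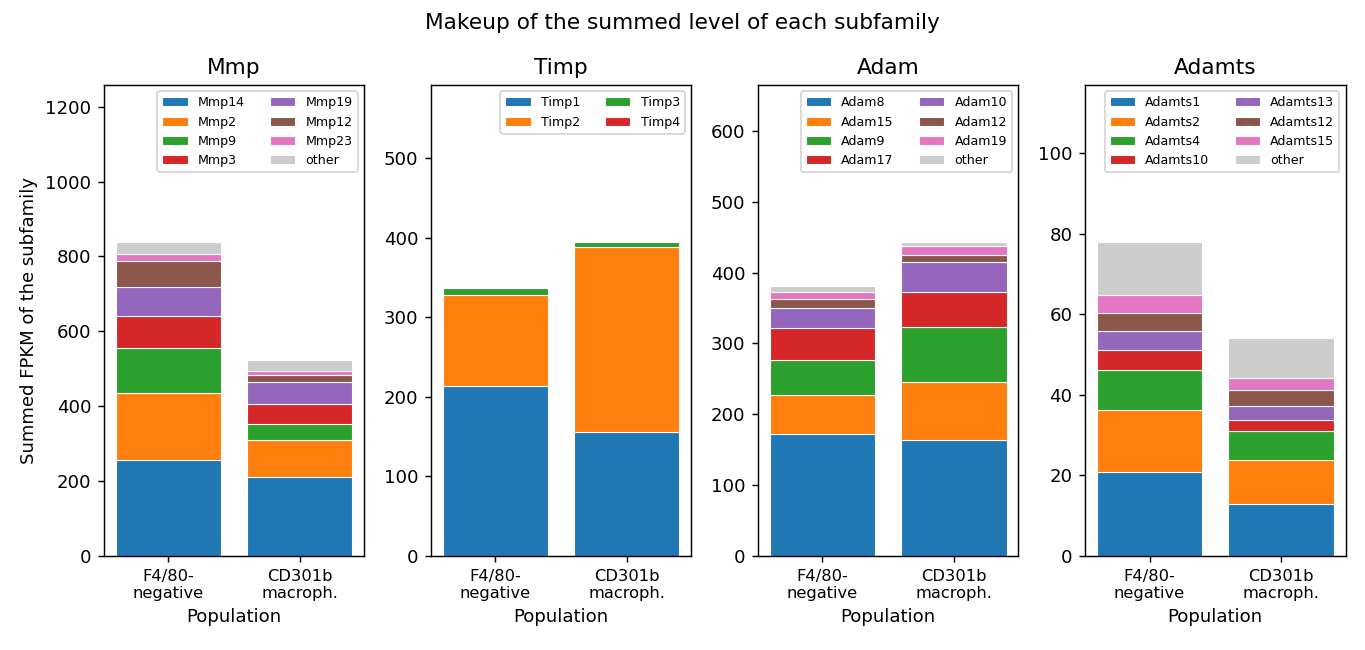
Summed FPKM of the Mmp, Timp, Adam and Adamts genes in each population (vertical axes, from 0, scaled separately), divided into the 7 members with the highest level in F4/80-negative cells and the rest. The Mmp bar falls from 839 FPKM in F4/80-negative cells to 524 FPKM in CD301b macrophages, while the Timp bar goes from 337 to 394 FPKM with Timp2 as the larger part.

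Among the ADAM sheddases Adam9 alone was called. Adam9, an enzyme that sheds growth factor precursors and helps macrophages fuse (NCBI gene 11502, chr8:24949611-25017040), was 77.6 against 50.1 FPKM, 1.55-fold higher. The adjusted p of its main transcript was 0.0125 by Cuffdiff in the authors' deposited table. Adam8, an enzyme of leukocytes, was the most abundant Adam gene, at 164 against 172 FPKM, and its adjusted p was 0.822 in that test of the authors' deposited table. Adam15, which carries an integrin-binding motif, was 81.6 against 55.5 FPKM, 1.47-fold apart, with neither of its transcripts past the threshold, and an antisense RNA overlaps 20.6% of its exon bases. Adam10, the main sheddase of Notch and CX3CL1, was 41.8 against 29.3 FPKM, with an adjusted p of 0.0644 by Cuffdiff in the authors' deposited table. Of the 5 most abundant Adam genes, 4 thus had the higher summed value in CD301b macrophages, with Adam9 called among them.

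Adam17, which encodes the TNF-converting enzyme TACE, gave a call that its summed level did not follow. The sum over 5 transcripts was 49.7 against 44.1 FPKM. Its main coding transcript was 45.6 against 34.9 FPKM and did not pass (adjusted p of 0.227 by Cuffdiff in the authors' deposited table). A minor coding transcript was 0.726 against 1.74 FPKM and did pass, in the other direction (adjusted p of 0.0134 by Cuffdiff in the authors' deposited table). A noncoding transcript was 0.432 against 4.03 FPKM and did not pass. The main transcript accordingly made up 91.7% of the gene's FPKM in CD301b macrophages and 79.1% in F4/80-negative cells. Among all tested transcripts of the table, 9.10% were higher and 5.14% were lower, and of the 62 tested member transcripts 3 were higher and 7 were lower. Iah1, which overlaps 4.35% of the Adam17 exon bases on the other strand, was 31.2 against 29.4 FPKM.

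**Figure D5:**
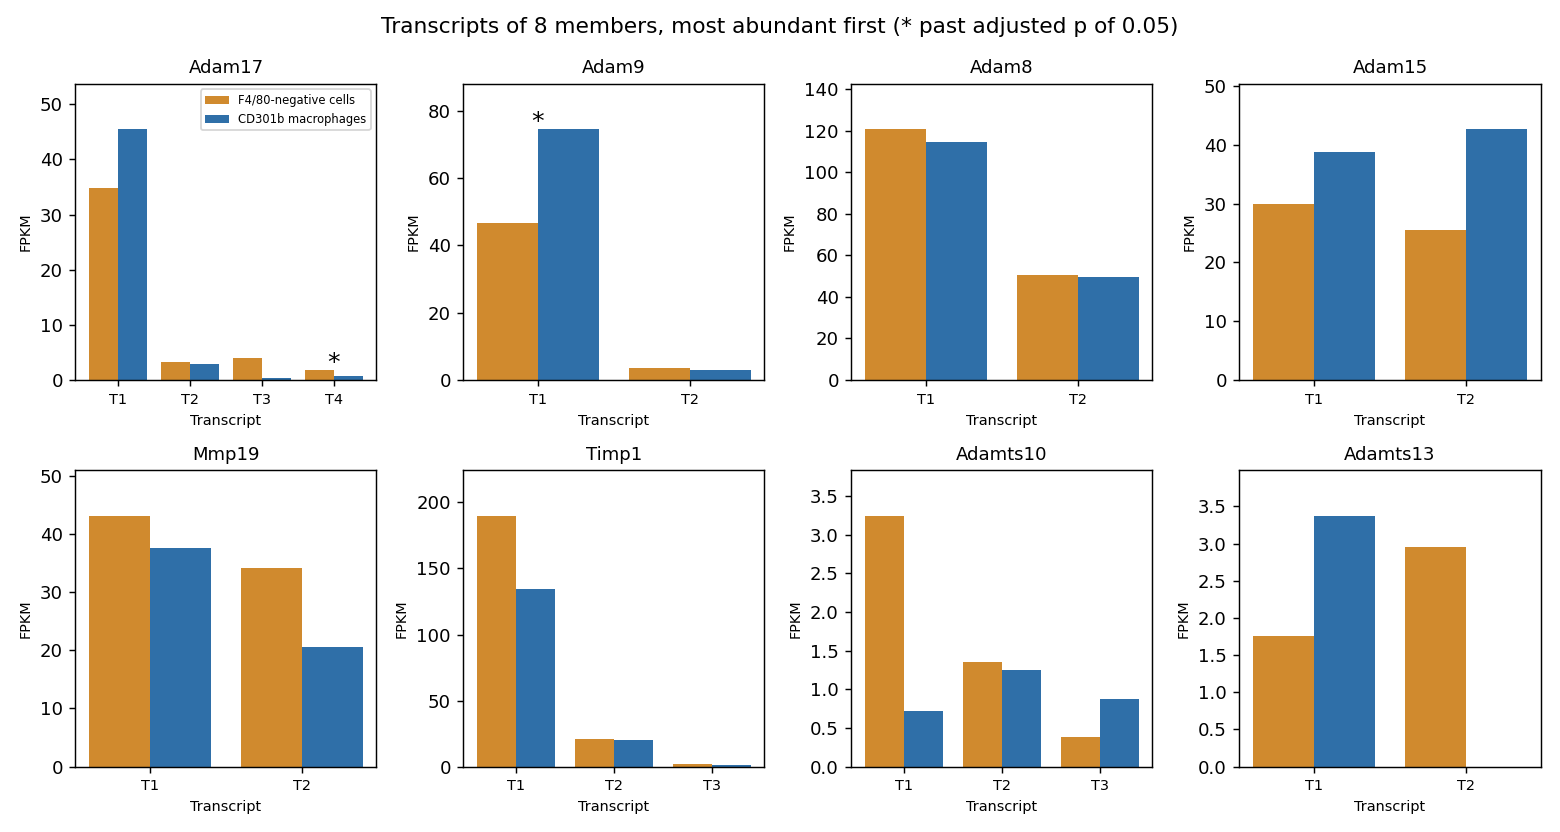
FPKM (vertical axes, from 0, scaled separately) of each transcript at 0.5 FPKM or more of 8 members with several transcripts, in F4/80-negative cells (orange) and CD301b macrophages (blue), ordered by mean level; asterisks mark transcripts past the threshold. In Adam17 the tall first transcript has the higher bar in CD301b macrophages, 45.6 against 34.9 FPKM, while the marked transcript goes the other way at 0.726 against 1.74 FPKM.

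The remaining expressed Adam genes did not pass the threshold. Adam12, a meltrin of mesenchymal cells, was 10.4 against 12.5 FPKM, and Adam19, its near relative, was 12.6 against 10.1 FPKM. Adam23, which lacks protease activity and binds integrins, was 3.36 against 4.45 FPKM, and Adam33, an airway and smooth muscle gene, was 0.571 against 1.11 FPKM. The other 24 Adam genes stayed under 1 FPKM in both populations, 13 of them listed at 0. Several of those at 0, such as Adam2, Adam18 and Adam24, are known from testis and sperm. On chromosome 8 lie 13 of the 33 Adam genes, of which Adam9 alone reached 1 FPKM.

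ADAMTS genes were expressed at low levels, and all 12 above 1 FPKM had the lower value in CD301b macrophages. Adamts1, a proteoglycanase that cuts versican and aggrecan (NCBI gene 11504, chr16:85793827-85803113), was 13.0 against 20.8 FPKM, 1.60-fold lower, with an adjusted p of 0.0111 by Cuffdiff in the authors' deposited table. It was the highest Adamts gene of both populations and the single one called. The other proteoglycanases were lower in value too, Adamts4 at 7.07 against 9.87 FPKM, Adamts15 at 2.98 against 4.43 FPKM, Adamts5 at 3.16 against 3.56 FPKM and Adamts9 at 1.41 against 2.0 FPKM. Summed over 7 genes, this group was 27.7 against 40.8 FPKM.

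The procollagen N-propeptidases, which trim the amino end of fibrillar procollagens, did not pass the threshold. Adamts2 was 10.9 against 15.4 FPKM and Adamts14 was 2.25 against 3.37 FPKM, while Adamts3 was under 1 FPKM. Adamts12 (3.94 against 4.56 FPKM) and Adamts7 (1.24 against 1.65 FPKM), which cut cartilage oligomeric matrix protein, and Adamts6 (0.859 against 1.10 FPKM) differed by less than 1.5 times. Without adjustment, 7 of 16 tested Adamts transcripts had a p of at most 0.05 in the authors' deposited table, all 7 lower in CD301b macrophages, beside 10.6% of all tested transcripts lower at that p. Only that of Adamts1 remained after adjustment over the whole table.

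Among Adamts genes with several transcripts, Adamts10 and Adamts13 each had transcripts whose values went in opposite directions. None of these transcripts passed the threshold, and a shift between transcripts was not tested. Adamts10, which acts on fibrillin microfibrils, was 2.85 against 4.98 FPKM in sum. A noncoding transcript of it was 0.717 against 3.24 FPKM (adjusted p of 0.0666 by Cuffdiff in the authors' deposited table), while its coding transcript was 0.877 against 0.379 FPKM. Adamts13, the enzyme that cuts von Willebrand factor, was 3.38 against 4.72 FPKM in sum. One of its transcripts was 3.38 against 1.76 FPKM and another was 0.00174 against 2.95 FPKM, and neither passed the threshold.

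The ADAMTS-like genes, whose products bind microfibrils, were low throughout. Adamtsl4 was 5.88 against 5.49 FPKM, Adamtsl1 was 1.99 against 2.79 FPKM and Adamtsl5 was 1.48 against 1.61 FPKM, none past the threshold. Adamtsl2 and Adamtsl3 were under 1 FPKM. The sum of the group was 9.56 against 10.3 FPKM, the smallest relative gap between populations among the subfamilies before scaling. After scaling to the median gene its log2 ratio of sums was -0.22, a wider gap than the 0.11 of both Adam and Timp.

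Markers of other cell types were measured beside these genes. All 10 fibroblast markers were detected in both sorted populations and had the lower value in CD301b macrophages, with a summed level of 4525 against 6742 FPKM, and none was at 0. Of these, 8 did not pass the threshold and none was called higher. The 2 called lower (20%, beside 6.20% of all genes) were Postn (282 against 491 FPKM) and Lum (70.7 against 116 FPKM). Of 15 transcripts, 10 were lower at an unadjusted p of at most 0.05 (Cuffdiff, the authors' deposited table) and 0 were higher. Of all tested transcripts, 10.6% were lower at that p. The list's median log2(FPKM + 1) difference was -0.50, beside -0.41 for the Adamts genes. The fibroblast sum was 1.49 times as high in F4/80-negative cells, beside 1.44 times for the Adamts sum, 1.82 times for Mmp2 and 1.37 times for Timp1. Mmp2, Mmp3, Mmp14, Timp1, Timp3 and several Adamts genes are known fibroblast products, and the part of fibroblast RNA in these differences was not tested.

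Of 8 dendritic cell markers, all were lower in CD301b macrophages (100%, beside 6.20% of all genes), with a median difference of -2.26. The largest differences were those of Ccr7 (8.39 against 63.4 FPKM), Ccl17 (5.21 against 39.9 FPKM), Flt3 (2.56 against 16.3 FPKM) and Ccl22 (7.62 against 49.4 FPKM). Mast cell markers were lower in 5 of 6 cases (83.3%, beside 6.20% of all genes) with a median of -1.25. Among the 5 were Kit (1.06 against 5.33 FPKM), Cpa3 (3.39 against 9.51 FPKM), Mcpt4 (5.93 against 16.9 FPKM) and Cma1 (6.01 against 15.5 FPKM). Neutrophil markers were lower in 3 of 7 tested cases (42.9%, beside 6.20% of all genes) with a median of -0.06. These were S100a8 (938 against 1725 FPKM), S100a9 (1092 against 2025 FPKM) and Csf3r (68.1 against 71.3 FPKM). Csf3r, with 3 transcripts, was called at the transcript level, while its summed FPKM was 0.956 times that of F4/80-negative cells. The other 4 did not pass, and 3 of them had the higher value in CD301b macrophages, Cxcr2 (27.3 against 25.7 FPKM), Ltf (1.24 against 0.703 FPKM) and Camp (0.585 against 0.119 FPKM). Retnlg, also not past the threshold, was 49.6 against 71.1 FPKM. Elane was at 0 in both populations, and Mpo was under 1 FPKM. Beside them, the neutrophil collagenase gene Mmp8 did not pass the threshold, and Mmp9 and Mmp25 were lower. Keratinocyte markers were lower in 1 of 7 cases (14.3%, beside 6.20% of all genes), Sfn (7.77 against 14.9 FPKM), with a median of -0.37. The other 6 did not pass, and all 7 had the lower value in CD301b macrophages. No gene passed among 6 endothelial markers, with Pecam1 at 26.7 against 26.9 FPKM and Cdh5 at 13.1 against 14.4 FPKM, or among 4 markers of pericytes and smooth muscle, with Acta2 at 29.7 against 34.2 FPKM and Tagln at 16.8 against 23.4 FPKM. Their medians were -0.22 and -0.23, and 0 of 11 and 0 of 4 transcripts had an unadjusted Cuffdiff p of at most 0.05 in the authors' deposited table. The part of these cells in the Mmp12, Mmp9 and Mmp25 differences was not tested.

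Genes of pericellular proteolysis that act beside these enzymes were lower wherever they passed the threshold. Of 19 tested genes for plasminogen activation, zymogen cutting and MMP docking, 5 were lower in CD301b macrophages (26.3%, beside 6.20% of all genes) and none was higher. Their median log2(FPKM + 1) difference was -0.22. Of 28 transcripts, 6 were lower and 1 was higher at an unadjusted p of at most 0.05 (Cuffdiff, the authors' deposited table). Of all tested transcripts, 10.6% were lower at that p. Plaur, the urokinase receptor, was 78.1 against 183 FPKM, and Plat, tissue plasminogen activator, was 27.4 against 48.2 FPKM. Itgb3, the integrin beta 3 chain, was also lower, at 4.34 against 6.96 FPKM, and so was Reck, a membrane inhibitor of MMPs, at 0.909 against 1.60 FPKM. Plg, plasminogen itself, was listed at 0 in both. Furin, the convertase that activates ADAMs and membrane-type MMPs, was 36.6 against 39.7 FPKM and did not pass. Plau, which encodes urokinase, had the higher value in CD301b macrophages, at 84.2 against 59.8 FPKM. It did not pass either (adjusted p of 0.0756 by Cuffdiff in the authors' deposited table). By summed FPKM, 15 of the 19 tested genes had the lower value in CD301b macrophages and 4 the higher.

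Of 13 tested partner genes of ADAM10 and ADAM17, none passed the threshold in the Cuffdiff test, where 1 of 19 transcripts, lower in CD301b macrophages, had an unadjusted p of at most 0.05 in the authors' deposited table. Their median difference was -0.16. Pdia6, a disulfide isomerase that acts on ADAM17, was 96.5 against 109 FPKM, and Tspan14, a tetraspanin that carries ADAM10 to the surface, was 55.9 against 46.9 FPKM. Rhbdf2, the iRhom that brings ADAM17 to the cell surface in leukocytes, was 24.1 against 27.1 FPKM. The widest relative gaps among the tested partners were those of Tspan33 (1.81 against 5.30 FPKM) and Rhbdf1 (3.61 against 5.96 FPKM). By summed FPKM, 8 of the 13 had the lower value in CD301b macrophages and 5 the higher. Of 23 tested surface substrates, 6 were higher (26.1%, beside 11.0% of all genes) and 2 were lower (8.70%, near the 6.20% of all genes), with a median of 0.15. Macrophage receptors led the higher ones, Cd163 (34.9 against 7.13 FPKM), Mertk (40.4 against 15.0 FPKM), Csf1r (666 against 283 FPKM) and Trem2 (275 against 137 FPKM), followed by App (265 against 179 FPKM) and Tnf (53.7 against 36.5 FPKM). The lower ones were Il1r2 (99.3 against 249 FPKM) and Cx3cl1 (0.689 against 1.72 FPKM). Csf1r and Mertk are macrophage markers of the list above, so this count is not independent of it.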

How the data were processed

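Libraries were made with an Illumina TruSeq mRNA protocol, per the labels' protocols. TopHat2 2.0.2, Cuffdiff 2.0.2 and mm9 are named, per the submitters' processing notes. No source used here gives the use of strand in counting. The authors deposited 1 table with an FPKM per transcript and population, and, per the file headers, an unadjusted p-value, a status and a call. The deposited p-values were adjusted by Benjamini-Hochberg over the 16921 transcripts with status OK; the result equalled the deposited call in all 34535 transcripts. The deposited log2 fold change was not used. With no values per library, no new test was run and no interval is given.

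FPKM were summed per symbol. Ratios are of summed FPKM; differences are of log2(FPKM + 1) and understate changes at low levels. A gene was given the smallest adjusted p of its tested transcripts. Of the table's accessions, 97.1% were found in RefSeq of GRCm38.p6 and 99.2% of these overlapped that gene, so gene positions were taken from RefSeq on GRCm38, not from mm9. Overlaps and shared 50-base words come from GENCODE M21. The call rule was tested on simulated data.

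Members, gene lists, enzyme classes and the naming rule were chosen with earlier results of these data known. Named were all members at 1 FPKM or more, other members from the tables after their values were seen, and of each list up to 4 called genes per direction at 5 FPKM or more, or else its 2 most abundant. Reck, Plg, Furin, Plau, Rhbdf1, Rhbdf2, Tspan33, App, Tnf, Cx3cl1, Elane, Mpo, Cxcr2, Ltf, Camp and Retnlg were added after their values were seen. Ly6g was not matched in the table. One gene counted in the list of pericellular proteolysis is not reported here by name. Alternatives were the threshold, the transcript used, the deposited call, the pseudocount, the scaling and a minimum FPKM. A planned search of protein features was not run, and protein sequences were not used here. The analysis used Python 3.11.15, pandas 2.3.3 and numpy 2.4.6.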

Additional observations from a re-analysis of the deposited data

How the results depend on the processing

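The settings other than the threshold reuse the same p-values and left the 9 member calls as they were, which is no sign of stability. At an adjusted p of 0.01, 6 of them remained, and the count of higher members fell from 3 to 1: Adam9, Mmp27 and, among the lower, Adamts1 were lost. The median of the Adam genes changed sign, from 0.05 to -0.061, after scaling both populations to the median gene, and that of all tested genes also changed sign, from 0.05 to -0.04. The scaling shifts each log2 ratio of FPKM by -0.11, and less than that on the log2(FPKM + 1) scale at low levels. The other subfamily medians and log2 ratios of sums kept their sign in every alternative run, but their size moved. The Mmp median went from -0.35 to -0.61 with a pseudocount of 0.1 FPKM and to -0.63 at 1 FPKM or more. The Adam median was 0.17 at 1 FPKM or more. The Adamtsl median went from -0.07 to -0.34 with the most abundant transcript only. Scaling took the log2 ratio of sums from 0.22 to 0.11 for Adam, from 0.23 to 0.11 for Timp and from -0.11 to -0.22 for Adamtsl. Of single genes not past the threshold, Adamts13 (0.67 with its most abundant transcript only) and Adamtsl4 (-0.01 under that scaling) changed sign. No paired analysis was possible because the table holds 1 value per population, and leaving out each replicate in turn was not run for the same reason. Depth is unknown, so differences of members near 1 FPKM cannot be given a counting error.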

Other observations

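Among other zinc metalloproteases and related peptidases, 12 genes were tested. Of these, 2 passed the threshold upward in CD301b macrophages (16.7%, beside 11.0% of all genes) and 3 downward (25%, beside 6.20%), with a median log2(FPKM + 1) difference of -0.14. Ide, the insulin-degrading enzyme, was 12.4 against 7.35 FPKM, and Zmpste24, which processes prelamin A, was 18.6 against 12.3 FPKM, and both were called higher. Bmp1, the astacin that trims the carboxy end of procollagens, was 34.0 against 52.4 FPKM, Ace, angiotensin-converting enzyme, was 15.0 against 22.9 FPKM, and Ece1, an endothelin-converting enzyme, was 10.2 against 15.4 FPKM, and all 3 were called lower. Adamdec1, a decysin of macrophages and dendritic cells that the naming rule of the members leaves out, was listed at 0.0492 against 0.0371 FPKM and was not tested. It was named after its values were seen.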
